A study of Arabidopsis thaliana with 6 samples.

Results

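Salicylic acid is the hormone of plant defence against pathogens that feed on living tissue. Its precursor isochorismate is made from chorismate in the chloroplast and exported, and the hormone is formed from it in the cytosol. In the nucleus it acts through the coactivator NPR1 and the TGA factors that NPR1 binds, with WRKY factors, which bind DNA, acting both up and down the pathway. Its classic output is PR1. Described here are 5 genes of this pathway in Arabidopsis thaliana, of 1336 genes in the authors' deposited lists of changed genes. They are PR1 (AT2G14610), EDS5 (AT4G39030), WRKY18 (AT4G31800), WRKY70 (AT3G56400) and NIMIN1 (AT1G02450). They were selected by gene identifier as salicylic acid genes that went in opposite directions in the sams3 mutant, and all 5 were found. Since the direction and size of change chose them, their values are given as a description, with no test.

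The mutant sams3 is affected in S-adenosylmethionine synthetase 3, an enzyme that makes the methyl donor S-adenosylmethionine. It was compared with L119, a transgenic line that stood in for the wild type. Both genotypes carry L119 in the ecotype label, and neither the transgene nor the kind of mutation is given in the sources used here. Whole seedlings of 15 days gave 2 RNA libraries per genotype. They grew at 22 °C on MS plates (agar 0.8%, sucrose at 20 g/L) with 23 h of light a day. No label names a pathogen or hormone treatment. One bisulfite library of each genotype is not analysed here. Each gene has 1 log2 fold change and 1 p-value from the authors, with no value per library, no standard error, no expression level and an unknown depth, so the seedling label could not be checked against marker genes. In bulk tissue, fewer cells of a type and less RNA per cell cannot be told apart. The labels do not say that the libraries came from separate cultures, so the spread behind the p-values is that of these libraries and may be technical. SAMS3 itself is in neither list, which leaves the genotype labels unchecked.

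PR1, EDS5 and WRKY18 were higher in sams3, and WRKY70 and NIMIN1 were lower. That is 3 of 5 higher, beside 66.9% of all 1336 listed genes, and 2 of 5 lower, beside 33.1%. Because these 5 were taken for their opposite directions, nothing is read from this split. Per the file headers, a listed gene had a change of 2-fold or more and p under 0.0001 (the authors' rule), and a gene outside the lists is called not listed, never unchanged.

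Export for hormone synthesis was represented by EDS5, a transporter of the chloroplast envelope that the synthesis of salicylic acid depends on. In the authors' deposited table EDS5 had a log2 fold change of 1.72, a level 3.30-fold higher in sams3 (p = 7.9e-61). By size it stood at rank 391 of the 894 higher genes, close to their median of 1.62. ICS1, the isochorismate synthase upstream of it, was not listed.

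Among the DNA-binding factors, WRKY18 and WRKY70 moved in opposite directions. WRKY18, which is known to act with WRKY40 and WRKY60 in defence, had a log2 fold change of 1.69 in the authors' deposited table, which is 3.23-fold higher (p = 1.15e-138). WRKY70, which is induced by salicylic acid and is known to hold back jasmonate genes, was at -1.04 in the authors' deposited table, or 2.05-fold lower (p = 1.62e-52). The distance between these factors was 2.73 on the log2 scale. Every listed gene changed 2-fold or more, and this pair was chosen for opposite directions, so much of that distance was fixed by the selection. EDS5 and WRKY18 were nearly equal in size, with a log2 difference of 0.03 between the values in the authors' deposited table. No error of that difference can be given.

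NIMIN1, a small protein that binds NPR1 and dampens the induction of PR1, had the largest fall of the 5 genes and their largest p-value. In the authors' deposited table its log2 was -1.73, or 3.32-fold lower, with p = 9.79e-05. That p is just under the authors' threshold of 0.0001. It was the largest among the 442 lower genes, and 1 gene in both lists had a larger one, at 9.86e-05 in the authors' deposited table. A Bonferroni threshold over the 38312 loci of the reference table, 1.31e-06, was met by the other 4 genes and not by NIMIN1. Of all 442 lower genes, 80 (18.1%) did not meet it either.

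PR1, a secreted protein and the usual marker of the salicylic acid response, had the smallest rise of the 3 higher genes. The authors' deposited table gives a log2 of 1.33, which is 2.51-fold higher (p = 7.06e-43). Its rank by size was 601 of 894, so most higher genes rose by more. The outputs PR2 and PR5, which are often induced together with PR1, were not listed.

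**Figure D1:**
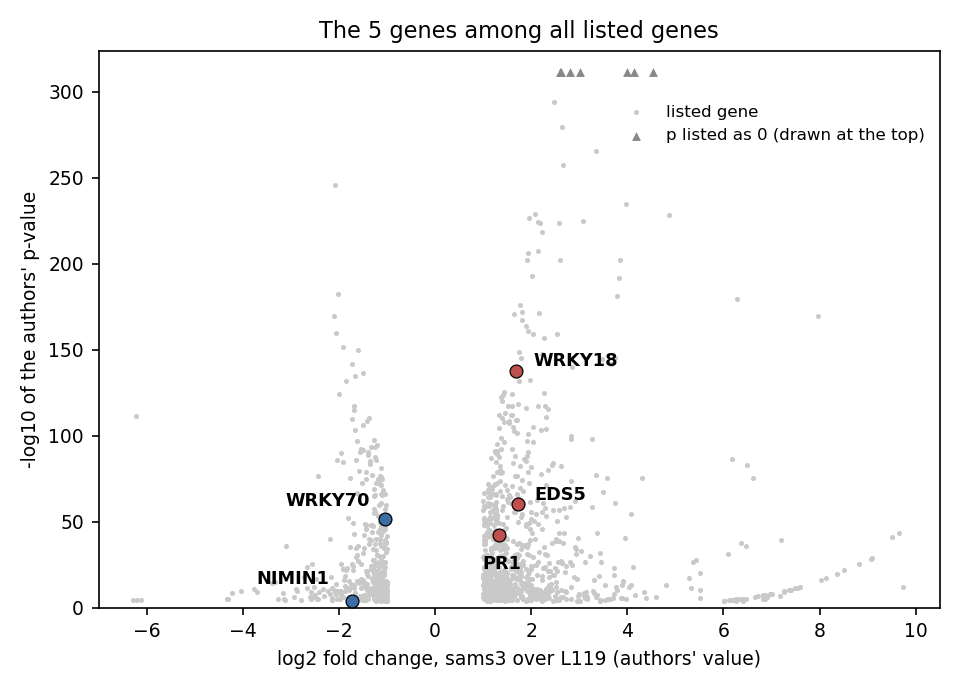
Log2 fold change, sams3 over L119 (x axis), against -log10 of the p-value (y axis) for all 1336 listed genes, with the 5 defence genes as outlined points, red for higher and blue for lower. Triangles at the top mark 7 genes whose p is listed as 0. WRKY18 stands at 137.9 on the y axis, whereas NIMIN1 lies on the floor at 4.0.

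The order by size of change and the order by p-value did not match among these genes. The smallest change of the 5 was that of WRKY70, which was near the 2-fold threshold, with 47 of the 442 lower genes smaller than it. The smallest absolute log2 in that list was 1.002 in the authors' deposited table. Yet only 16.3% of lower genes had a smaller p-value than WRKY70. With lower genes of like size alone, within 0.1 on the log2 scale, 13 of 130 had a smaller p than WRKY70. NIMIN1 was at the other end. All 37 lower genes of like size had a smaller p, which follows from its p being the largest of the 442 lower genes. WRKY18 had one of the smallest p-values for its size, with 4 of 96 higher genes of like size below it. PR1 and EDS5 lay in between, with 51 of 141 and 27 of 88 genes of like size below them. A p-value at a given fold depends on the level of a gene and on the spread between libraries, and the part of each was not tested, because the lists hold no levels.

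The wider pathway was described through 61 genes, sorted by role, a list that includes the 5. Of the 61, 5 were higher, 7 were lower and 49 were not listed. Their median log2 over the 12 listed genes, which include the 5 chosen ones, was -1.04, beside 1.24 over all listed genes. No listed gene changed by less than 2-fold, so this median shows which side held more genes and not a typical change. Without the 5 genes, 56 remained, of which 2 were higher, 5 lower and 49 not listed. The listed share of these 56 was 12.5%, beside 4.68% of the 27562 protein-coding loci of the reference table, of which 3.11% were listed as higher and 1.57% as lower. Those loci are not the set that the authors tested, so the shares have unlike bases. The list was written with earlier results of these data known and was given no test.

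**Figure D2:**
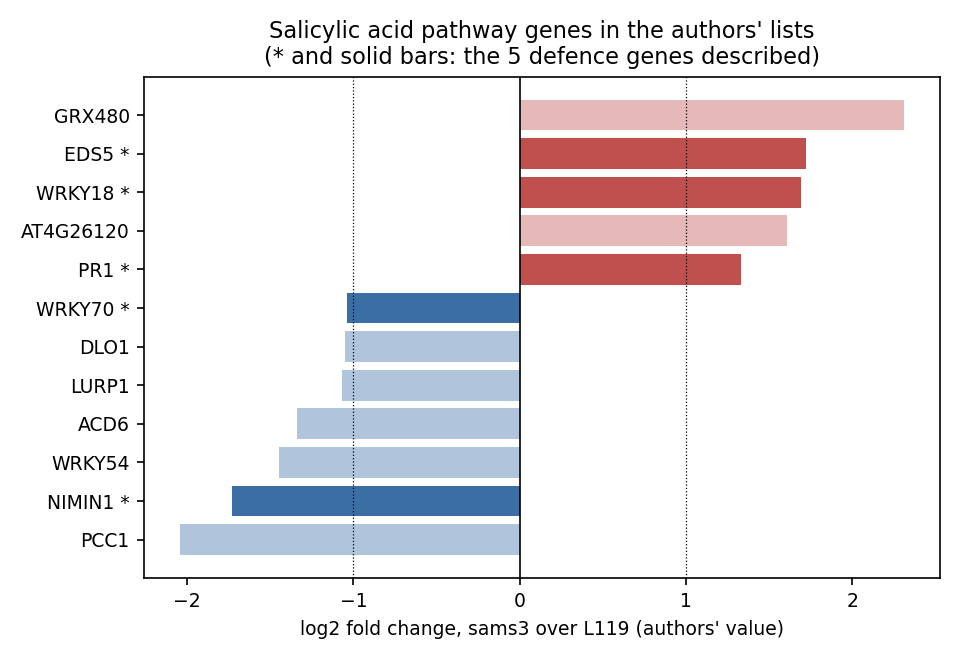
Log2 fold change, sams3 over L119 (x axis), of the 12 listed genes of the salicylic acid pathway list, 1 bar per gene, with solid bars and asterisks for the 5 defence genes and dotted lines at a 2-fold change. Values run from 2.31 for GRX480 to -2.04 for PCC1, with 5 bars to the right and 7 to the left.

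Beyond the 5 genes, the higher pathway genes were GRX480 and AT4G26120. GRX480 is a glutaredoxin that binds TGA factors and is known to repress jasmonate output genes. Its log2 in the authors' deposited table was 2.31, or 4.95-fold higher (p = 1.72e-104), the largest rise of the pathway list. AT4G26120, described in the deposited table as an ankyrin repeat and BTB/POZ protein with an NPR1-like C-terminus, was at 1.61 in the authors' deposited table (p = 4.62e-20). NPR1 itself and its relatives NPR3 and NPR4, which bind the hormone, were not listed. Nor were any of the 7 TGA factors. Of protein-coding loci, 4.68% were listed, so nothing is read from these absences.

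The lower genes outside the 5 were outputs, a factor and an enzyme of turnover. The largest fall was that of PCC1, a pathogen-induced gene under clock control, at a log2 of -2.04 in the authors' deposited table, or 4.11-fold lower (p = 1.24e-86). ACD6, an ankyrin protein of the membrane known to promote salicylic acid signalling, was at -1.34 in the authors' deposited table (p = 2.21e-94). LURP1, needed for full resistance to a downy mildew, was at -1.07 in the authors' deposited table (p = 1.18e-35). Of the 9 outputs in the list, these 3 were lower, PR1 alone was higher and 5 were not listed. Of protein-coding loci, 1.57% were listed as lower and 3.11% as higher. PR1 was chosen for its direction, and the outputs were picked with earlier results known, so nothing is read from these counts. DLO1, an oxygenase that hydroxylates salicylic acid, was at -1.05 in the authors' deposited table with p = 9.52e-06, which did not meet the Bonferroni threshold over reference loci.

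**Figure D3:**
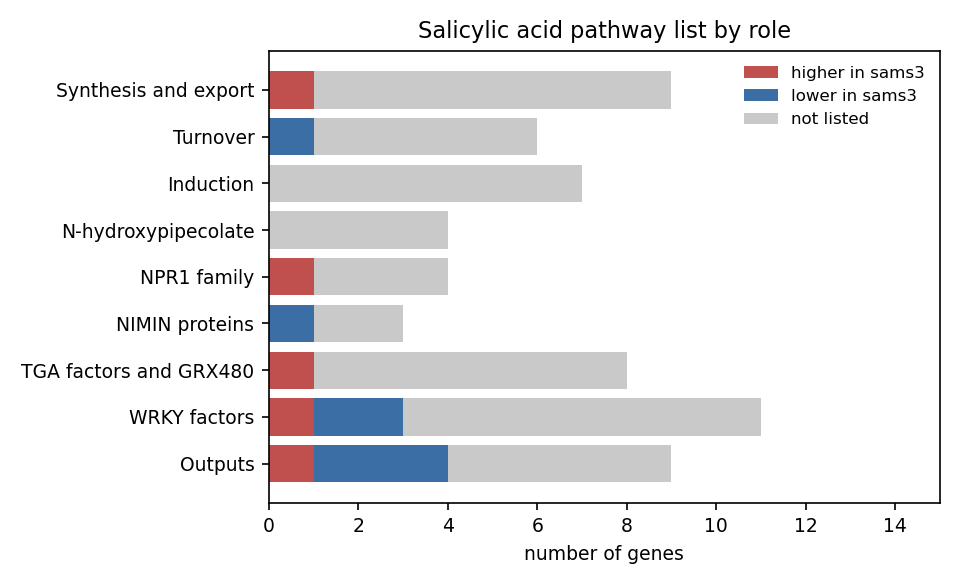
Number of genes (x axis) in each of the 9 roles of the 61-gene salicylic acid pathway list (y axis), split into higher in sams3 (red), lower in sams3 (blue) and not listed (grey). Outputs hold 1 higher and 3 lower genes of 9, and induction and the N-hydroxypipecolate branch hold 0 listed genes of 7 and of 4. Of protein-coding loci, 3.11% were listed as higher and 1.57% as lower.

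Upstream of the hormone and in the N-hydroxypipecolate branch, 1 of 20 genes was listed, beside 4.68% of protein-coding loci. That gene was EDS5, which was chosen from the listed genes, so nothing is read from this share. EDS5 was the listed gene among 9 of synthesis and export, and the other 8, among them ICS1, PBS3 and 4 phenylalanine ammonia-lyases, were not listed. The 7 genes of induction, which include EDS1, PAD4, SARD1 and CBP60G, had 0 listed. Of the 4 genes of that branch, a second signal of systemic resistance, 0 were listed. BSMT1, which methylates salicylic acid with S-adenosylmethionine as the donor, was not listed either. These genes have no value in the lists, so a change under 2-fold or above the p threshold cannot be told from none.

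Relatives of the 5 genes gave a mixed picture. Whether similar copies shared reads was not tested, and being listed or not does not show it. WRKY54, the nearest relative of WRKY70 by the deposited description and known to act with it, fell too, with a log2 of -1.45 in the authors' deposited table, or 2.73-fold lower (p = 6.88e-15). WRKY70 and WRKY54 were the lower genes of the WRKY family, and each is named as the best protein match of the other. Of the partners of WRKY18, neither WRKY40 nor WRKY60 was listed. PRB1, the best match of PR1, was not listed, and neither were the best matches of EDS5 (AT2G21340) and NIMIN1 (AT4G01895), nor NIMIN2 and NIMIN3. How the authors assigned reads that fit several copies is not stated in the labels or file headers.

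Across the 71 WRKY genes of the reference table, 7 were listed (9.86%, beside 4.68% of protein-coding loci), 5 higher and 2 lower. The share of higher genes, 71.4% of the listed ones, was near the 66.9% of all listed genes. Among the 7 are WRKY18 and WRKY70, which were chosen from the listed genes for their directions. Nothing is therefore read from either share. WRKY30 had the largest rise, with a log2 of 3.21 in the authors' deposited table (p = 1.01e-30). WRKY45 and WRKY57 were at 1.72 and 1.71 in the authors' deposited table, nearly the value of WRKY18. WRKY57 is known in drought tolerance. WRKY75, known for its part in phosphate starvation and leaf ageing, was at 1.15 in the authors' deposited table.

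**Figure D4:**
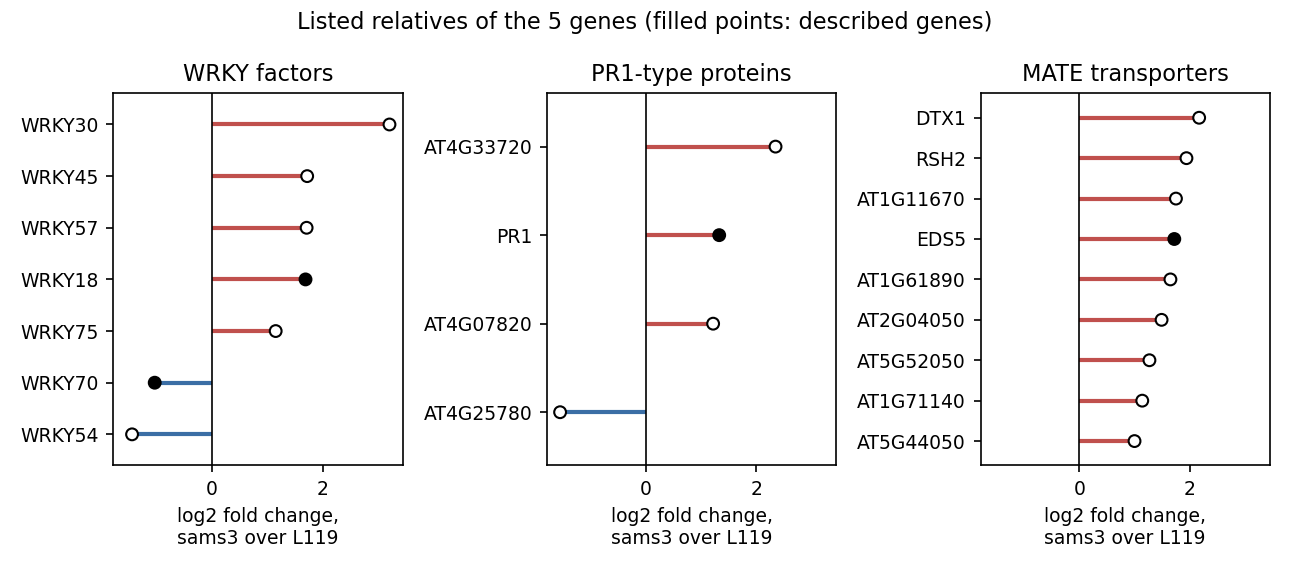
Log2 fold change, sams3 over L119 (x axis), of every listed gene with a WRKY, PR1-type or MATE domain in its deposited description, 1 point per gene, filled for the 5 defence genes except NIMIN1, which has none of these domains. WRKY and PR1-type genes lie on both sides of 0, and the 9 MATE genes all lie above it.

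The protein families of PR1 and EDS5 were looked at after values had been seen. Both are small sets in lists where 66.9% of all genes were higher, and each holds a gene chosen for its direction. Genes with the domain of PR1 numbered 3 higher and 1 lower, which is near that share. Among them AT4G33720 was at 2.35 and AT4G07820, whose best match is PR1, at 1.22, whereas AT4G25780 was at -1.55 in the authors' deposited table. EDS5 belongs to the MATE transporters, of which 9 were listed, all 9 higher. The largest of their log2 values in the authors' deposited table was 2.17 for DTX1, an efflux carrier of toxic compounds, the median was 1.65, and the smallest, that of AT5G44050, lay just above the 2-fold threshold. EDS5 was therefore near the middle of the 9 listed MATE genes. MATE genes that were not listed were not counted.

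The deposited descriptions tie these genes to defence unevenly. PR1, EDS5 and NIMIN1 are described with defence response terms, WRKY18 with a number of processes that are not spelled out, and WRKY70 with none. Listed genes whose description names salicylic acid numbered 6 higher and 1 lower, and EDS5 and GRX480 were the pathway genes among them. Of the others, the trypsin inhibitor gene KTI1 was at 2.47 in the authors' deposited table, and the receptor kinase genes CRK20, CRK5 and CRK4 were at 1.94, 1.11 and -1.30 there. GLIP2, a secreted lipase gene of defence, was at 1.14 in the authors' deposited table with p = 4.87e-05. GLIP2 and CRK20 (p = 8.05e-06 in the authors' deposited table) did not meet the Bonferroni threshold. Systemic acquired resistance is named for 4 listed genes. PR1, AZI1 (2.13 in the authors' deposited table) and JAZ10 (3.48) were higher, and NIMIN1 was lower. AZI1 acts in the priming of this resistance, and JAZ10 is a repressor of jasmonate signalling. The shares of higher genes, 85.7% of 7 and 75.0% of 4, stand beside 66.9% of all listed genes, and so few genes give no leaning of their own. EDS5 among the 7, and PR1 and NIMIN1 among the 4, were also chosen for their directions. The 61-gene list shares 2 of the 7 and 2 of the 4 genes with these sets.

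By position, the 5 genes are spread over 4 chromosomes, with EDS5 and WRKY18 both on chromosome 4. None of the loci directly beside them was listed. Of all 38312 reference loci, 3.48% were listed, which is under 1 locus in 20. Within 10 loci on each side, EDS5, WRKY18 and WRKY70 had 0 listed neighbours of 20 each. PR1 had 1, the lower gene LURP1, a lower salicylic acid output near a higher one on chromosome 2. NIMIN1 had 4 listed neighbours of 20, of which 3 were higher. They were, in the authors' deposited table, AT1G02405 (2.54), AT1G02470 (1.93), GA2OX6 (1.61), which inactivates gibberellin, and the lower gene AT1G02380 (-1.63). In the reference table EDS5 overlaps AT4G39040, which was not listed, and the other 4 genes overlap no locus. Whether the authors counted reads by strand is not stated there either, so reads of the overlap may have gone to either gene.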

How the data were processed

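RNA was sequenced from 2 libraries each of L119 and sams3 seedlings. The authors deposited lists of genes higher and lower in sams3, each with a log2 fold change and a p-value. Per the file headers, genes changed at least 2-fold with p below 0.0001, and whether this p-value was adjusted is not stated there. The submitters' processing notes name Bismark, Bowtie2, edgeR and the build TAIR10, with no versions. The table headed as higher transposable elements repeats the list of higher genes byte for byte and was not used.

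The members and lists were chosen with earlier results of these data known. From the deposited values, counts, ranks and medians were computed, after a check of the functions on simulated data. No test was run. The RefSeq gene table of TAIR10.1 gave symbols and the order of loci, and held 1335 of the 1336 listed identifiers. Its name differs from the build of the authors, so no coordinates are given. Planned comparisons of promoter motifs and protein identity were not run, because no sequences were used here. The text names the 5 genes, the listed genes of the pathway list, their relatives, and all listed genes of small annotation sets. The PR1-type, MATE and neighbouring genes were added after their values were seen. Alternatives were stricter thresholds on p and fold, the list without the 5 genes, another way to find the WRKY family and a wider window of like fold. The software was pandas 2.3.3, numpy 2.4.6 and scipy 1.17.1 under Python 3.11.15, with figures by matplotlib 3.10.9.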

Additional observations from a re-analysis of the deposited data

How the results depend on the processing

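The 39 alternatives filter or regroup the same deposited values, so none could reverse a direction and they say nothing about the stability of a sign. Of them, 23 left the count within 1.5 times or the share within its exact 95% binomial interval. That interval takes listed genes as independent, which was not tested. The wider window of like fold holds all genes of the narrower one, so likeness between their shares is partly built in. Stricter thresholds can only take genes away, so fewer genes by construction is the reason that counts moved. With the Bonferroni threshold, the lower count of the 5 genes was 1 and that of genes described with systemic acquired resistance was 0, in each case through NIMIN1. At an absolute log2 of at least 1.5, lower counts were 1 for the 5 genes, 2 for the pathway list, 0 for the WRKY family and 0 for genes described with salicylic acid. At an absolute log2 of at least 2, none of the 5 genes was left (0 higher, 0 lower), the pathway list had 1 higher and 1 lower, the WRKY family 1 and 0, genes described with salicylic acid 2 and 0, and lower genes described with systemic acquired resistance 0. Without the 5 genes the pathway list had 2 higher. The WRKY family found by domain, an alternative chosen after seeing the data, gave the same counts. No paired analysis was possible because the lists hold no value per library, and for that reason leaving out a replicate, another normalization and a filter on low counts were not run. The promoter window was not varied, since no promoter sequence was used. Depth is unknown, so how firmly a gene that is not listed was measured cannot be said.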

Other observations

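Listed genes with defence terms were mostly higher. Listed genes whose deposited description names a defence response numbered 64 higher and 9 lower, 87.7% higher, beside 66.9% of all listed genes. Of the 12 listed pathway genes 41.7% were higher, but these include the 5 genes chosen for their directions. Without those 5, 28.6% of 7 were higher, in a list written with earlier results known. The pathway list shares 3 genes with the defence response set, PR1, EDS5 and NIMIN1. Descriptions that name jasmonic acid belonged to 16 higher and 0 lower genes, in lists where 66.9% of all genes were higher. PR1, which was chosen for its direction, and GRX480 are in both that set and the pathway list. Genes with such descriptions that were not listed were not counted. These sets were looked at after values had been seen, share genes with each other, and were given no test.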
